A study of Mus musculus with 6 samples.

Results

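The genes described here are the 8 members of a stretch of mouse chromosome 17 that holds the TREM receptor genes, Trem1, Trem3, Treml4, Treml2, B430306N03Rik, Trem2 and Treml1, together with their neighbour Nfya. They were taken by symbol from 55484 genes and lie between positions 48232768 and 48409906 (GRCm38), a span of 177 kb. The set was chosen by its FPKM and the authors' calls in the same comparison of running with sedentary mice, so the differences given for its members are a description and not a test. Polyadenylated RNA was sequenced from the femora of wild-type males of the C57BL/6 strain. Of the 6 libraries, 3 are of a sedentary group and 3 of a group that could run in a wheel at will. All 6 mice ate normal chow, entered the groups at 6 weeks of age, were housed singly for 6 weeks and were 12 weeks old at collection. The sedentary cages had no wheel. Each gene has 1 FPKM per group (a fragment count scaled by transcript length and sequencing depth) with the bounds of an interval set by the authors, so no value of a single mouse and no SD can be given.

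TREM receptors are immunoglobulin-domain proteins on the surface of myeloid cells. The activating members carry almost no signalling tail of their own and pair with the transmembrane adaptor encoded by Tyrobp, which recruits the kinase Syk. In bone the family is known for Trem2, which acts in osteoclasts and macrophages; loss of TREM2 or of its adaptor in people causes a disease with bone cysts and dementia. Nfya encodes the DNA-binding subunit of NF-Y, a trimer that binds the CCAAT box of many promoters, and does not belong to the receptor family.

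Femoral bone RNA held transcripts of bone and of marrow. Osteocyte and osteoblast genes were present (Dmp1 with 145 and 169 FPKM in the sedentary and the running group, Bglap with 3157 and 3184), and all 10 genes of that list were tested. The highest values of the neutrophil list lay above them (S100a9 with 20406 and 17114 FPKM), and whether marrow was flushed is not stated in the labels. In such bulk RNA, fewer cells of a type and less RNA per cell cannot be told apart. The step between the lowest FPKM values was taken as 1 fragment. It gave estimates of 14300000 to 16400000 fragments per library in the sedentary and 13700000 to 17300000 in the running group. The estimates per group were 45000000 and 48100000. They rest on group values and an assumed length correction, and the depth of no single library was known.

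All 8 genes were listed at low to moderate levels. The intervals reached 0 for Treml4 in sedentary mice and for Trem2 and B430306N03Rik in running mice. In sedentary mice the order from the highest was B430306N03Rik (6.50 FPKM), Trem3 (3.98), Nfya (3.67), Treml1 (3.10), Trem2 (0.917), Treml2 (0.522), Trem1 (0.345) and Treml4 (0.167). Each interval in that order overlapped the next. In running mice Nfya stood first at 10.9 FPKM, apart from all that followed, and Treml4 came second at 1.35 FPKM. Below them Trem3, Treml1, B430306N03Rik, Treml2, Trem2 and Trem1 lay between 0.802 and 0.201 FPKM with overlapping intervals. By group value B430306N03Rik thus left the first place for one among the low genes, and Treml4 went from last to second. The running interval of Treml4 (0.0422 to 2.65) overlapped those of all genes below it. Its sedentary interval (0 to 0.663) overlapped those of Trem1, Treml2 and Trem2, so the intervals do not settle its rank.

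A gene is called here when its q in the authors' deposited table is under 0.05. Of the 8 genes the authors tested 6 and called 5, with 3 lower and 2 higher in running mice, and over all 15508 tested genes 0.941% were called (0.497% lower and 0.445% higher). Because the members were picked for these calls, nothing is read from their count. Trem1 and Treml2 were not tested by the authors. Intervals of the groups were apart for 3 of the 5 called genes, Trem3, B430306N03Rik and Treml1, all lower in running mice. Among all 146 calls they were apart for 69, that is for 50 of the 77 lower and 19 of the 69 higher calls. Over all tested genes 0.445% were called with intervals apart (0.322% lower and 0.123% higher).

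**Figure D1:**
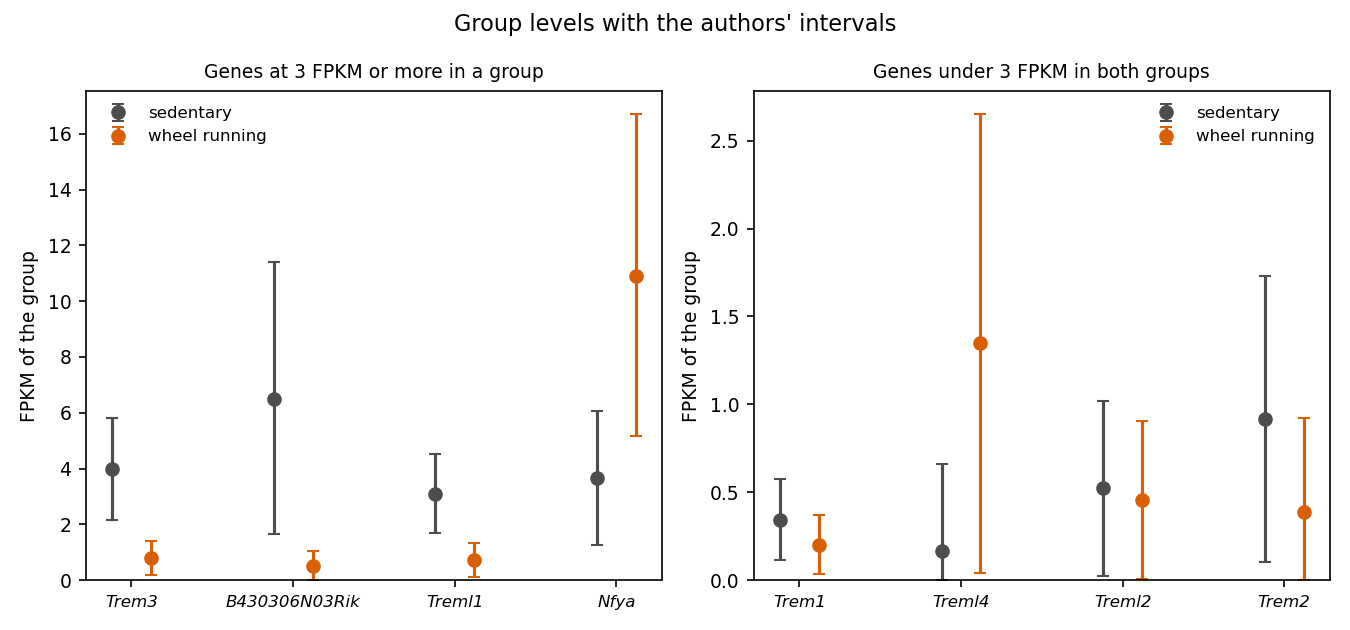
FPKM of each group on the vertical axis for the 8 genes, with points for the group value and bars for the authors' interval; genes reaching 3 FPKM in a group are on the left and the others on the right. The running points of Trem3, B430306N03Rik and Treml1 and their bars lie below the sedentary bars, Nfya and Treml4 are higher in running mice with overlapping bars, and the bars of Trem1, Treml2 and Trem2 overlap.

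Among the activating receptors, Trem3 was the most expressed in sedentary mice and fell. Trem3 (ENSMUSG00000041754; chromosome 17, 48247777 to 48258841, plus strand) encodes an activating receptor of mouse macrophages and is a pseudogene in humans. Its level was 3.98 FPKM (authors' interval 2.14 to 5.82) in sedentary and 0.802 (0.198 to 1.41) in running mice. The running group was low, with no overlap of the intervals, a 4.96-fold difference. The log2 fold of running over sedentary was -2.18 on the log2(FPKM + 0.1) scale used below, which understates changes of low genes, and the authors' deposited table gives a q of 0.00718. That q is the smallest the table holds and is shared by 108 genes, whose p in the authors' deposited table is 5e-05. Trem3 has 1 annotated transcript of 994 bases in 4 exons, so its FPKM does not depend on how fragments are shared between transcripts. Its levels correspond to an estimated 133 fragments over the 3 sedentary libraries and 29 over the 3 running libraries.

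Trem1, 852 bases upstream of Trem3 on the same strand, encodes the receptor that amplifies inflammatory responses of neutrophils and monocytes. It was near the floor of detection in a tissue rich in neutrophil RNA. Trem1 (ENSMUSG00000042265; 48232768 to 48246924) stood at 0.345 FPKM (0.116 to 0.574) in sedentary and 0.201 (0.0332 to 0.369) in running mice. The intervals overlapped, and the log2 fold was -0.56. These levels correspond to an estimated 28 to 43 fragments in the sedentary and 18 to 27 in the running libraries, depending on which of 2 transcripts (2077 to 2993 bases) carried them. A processed pseudogene, Gm18679, lies inside Trem1 on the other strand and is listed at 0 in both groups.

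Trem2, which binds lipids and apolipoproteins, was not called. Trem2 (ENSMUSG00000023992; 48346401 to 48354147) had 0.917 FPKM (0.103 to 1.73) in sedentary and 0.385 (0 to 0.921) in running mice. The running value was lower but the intervals overlapped, and the log2 fold was -1.07. The authors' deposited table lists a p of 0.0459 and a q of 0.864. Per length this is far below Acp5, an osteoclast acid phosphatase gene (735 and 844 FPKM), and C1qa, a complement gene of resident macrophages (134 and 139 FPKM). With 4 transcripts of 526 to 4784 bases, the estimated fragments span 11 to 187 in the sedentary and 5 to 84 in the running libraries.

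Treml4, 5.45 kb downstream of Trem3, rose. The receptor it encodes is found on non-classical monocytes, macrophages and some dendritic cells. Treml4 (ENSMUSG00000051682; 48264295 to 48275360, plus strand) was listed at 0.167 FPKM (0 to 0.663) in sedentary and 1.35 (0.0422 to 2.65) in running mice. The running group was 8.06-fold higher, yet the intervals overlapped and the sedentary interval reached 0. The authors' deposited table lists a q of 0.0428, close to the threshold, and the test statistic of 1.34 there was the smallest in size among the 5 calls. The log2 fold of 2.44 became 1.01 with a pseudocount of 1. Depending on which of its 6 transcripts (513 to 1744 bases) carried the fragments, the sedentary level corresponds to an estimated 2 to 11 fragments over 3 libraries and the running level to 17 to 97.

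The bases before the start of Treml4 are shown because it lies between genes that moved the other way; those of B430306N03Rik and Treml1 follow for comparison. They are the reference sequence of C57BL/6J from the RefSeq promoter table (GRCm38.p6), 5′ to 3′ on the plus strand, and end at the base before the first annotated exon. Of the 8 genes, 6 have an entry in that table. Capitals mark CCAAT (the NF-Y box), GAGGAA and GGAAGT (purine-rich cores of sites of PU.1 and other ETS factors) on either strand.
Treml4 (chr17:48264045-48264294): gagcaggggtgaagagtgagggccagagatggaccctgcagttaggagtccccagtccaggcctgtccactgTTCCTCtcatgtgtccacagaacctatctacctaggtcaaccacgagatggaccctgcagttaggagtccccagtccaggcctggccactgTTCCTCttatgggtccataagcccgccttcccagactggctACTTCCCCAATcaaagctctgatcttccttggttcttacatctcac
B430306N03Rik (chr17:48315912-48316140): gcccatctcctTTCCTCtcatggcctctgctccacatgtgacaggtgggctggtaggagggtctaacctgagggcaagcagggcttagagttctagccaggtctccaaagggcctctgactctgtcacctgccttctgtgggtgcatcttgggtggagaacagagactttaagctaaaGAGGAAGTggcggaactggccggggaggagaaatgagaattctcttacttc
Treml1 (chr17:48359666-48359915): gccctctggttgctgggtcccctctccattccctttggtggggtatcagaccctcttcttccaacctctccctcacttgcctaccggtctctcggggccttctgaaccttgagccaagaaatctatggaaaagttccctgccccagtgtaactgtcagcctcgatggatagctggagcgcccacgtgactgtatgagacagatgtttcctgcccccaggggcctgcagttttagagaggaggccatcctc
The Treml4 window of 250 bases has 1 CCAAT, directly after 1 GGAAGT on the minus strand, and 2 GAGGAA on the minus strand. The 2 GAGGAA follow the copies of an exact repeat of 40 bases (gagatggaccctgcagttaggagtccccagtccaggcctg), which starts 225 and 134 bases before the first exon. In the B430306N03Rik window of 229 bases, 1 GAGGAA on the plus strand overlaps GGAAGT in the run GAGGAAGT, another GAGGAA lies on the minus strand, and there is no CCAAT. None of the 3 motifs is in the Treml1 window. CCAAT also occurs once in the 250 bases before the start of Trem2, the uncalled gene, and once in 1 of the 3 windows listed for Nfya. In such windows Trem1 has 1 GAGGAA and 1 GGAAGT, and Trem2 has 1 GAGGAA. The other Nfya windows have 1 GGAAGT each. B430306N03Rik has 3 GAGGAA when 250 bases before the start are taken. Among 32851 promoter windows of the table, taken as 250 bases before the start, 33.8% hold CCAAT, 23.3% GAGGAA and 19.7% GGAAGT, so each is common by itself.

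Treml1, the platelet member of the family, fell. The protein is stored in platelet granules, moves to the surface on activation and carries an inhibitory tyrosine motif instead of pairing with the Tyrobp adaptor. Treml1 (ENSMUSG00000023993; 48359916 to 48367176, plus strand) went from 3.10 FPKM (1.68 to 4.52) in sedentary to 0.717 (0.110 to 1.32) in running mice. The running group was low and the intervals did not overlap, a 4.33-fold difference with a log2 fold of -1.97. For this gene, too, the authors' deposited table has a q of 0.00718. With 5 transcripts of 848 to 1235 bases, its levels correspond to an estimated 83 to 137 fragments in the sedentary and 21 to 34 in the running libraries.

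Beside Treml1, none of 14 tested megakaryocyte and platelet genes was called, and 0 had a p under 0.05 in the authors' deposited table, against 5.65% of all tested genes (3.42% higher and 2.22% lower). Their log2 folds had a median of -0.09 and a range of -0.22 to 0.00, beside a median of -0.0067 over all tested genes. Of the 14, 1 had a positive log2 fold. Their FPKM summed to 1920 in the sedentary and 1769 in the running group. The chemokine genes Ppbp (816 and 731 FPKM) and Pf4 (540 and 517) and the integrin genes Itgb3 (95.9 and 90.8) and Itga2b (86.1 and 77.1) led the list. No marker of the list was at 0.

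Treml2, whose product is found on B cells, neutrophils and macrophages, was low in both groups, with wide intervals. Treml2 (ENSMUSG00000071068; 48299498 to 48312533) stood at 0.522 FPKM (0.0262 to 1.02) in sedentary and 0.455 (0.00465 to 0.906) in running mice, a log2 fold of -0.16. The summed level of 9 B lineage genes was 366 and 328 FPKM, with 0 called and 0 with a p under 0.05 in the authors' deposited table. Their median log2 fold was -0.15, and 0 of the 9 had a positive log2 fold.

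B430306N03Rik had the largest difference of the 8. It is a protein-coding gene between Treml2 and Trem2, 3.61 kb from the former and 19.4 kb from the latter, known by its clone name only. B430306N03Rik (ENSMUSG00000043740; 48316141 to 48327024, plus strand) fell from 6.50 FPKM (1.64 to 11.4) in sedentary to 0.492 (0 to 1.05) in running mice. The intervals did not overlap, the difference was 13.2-fold and the log2 fold -3.48, with a q of 0.00718 in the authors' deposited table. Among all tested genes its level went from percentile 39.1 to percentile 1.08. With 3 transcripts of 994 to 3996 bases, its levels correspond to an estimated 217 to 1095 fragments in the sedentary and 18 to 89 in the running libraries, ranges that do not meet.

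Close copies of the genes could share fragments, so every run of 50 bases in their annotated transcripts was looked up in the transcripts of all other genes. No run of Trem1, Trem2, Trem3, Treml1, Treml2, Treml4 or Nfya occurred in another gene. In B430306N03Rik 187 of 5252 runs (3.56%) did, among others in 9830107B12Rik, A530064D06Rik, Cog7, Gabpb2 and Gfra2. Of these, 9830107B12Rik and A530064D06Rik lie upstream of Trem1 on the other strand and were not tested by the authors. They were listed at 0.254 and 0.0647 FPKM, and at 0.134 and 0.232 FPKM, in sedentary and running mice. Levels of Cog7, Gabpb2 and Gfra2 are not given here. Whether shared fragments entered the level of B430306N03Rik was not tested. No annotated gene overlapped a member except the pseudogene in Trem1.

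Nfya rose, in the direction opposite to the receptor genes nearest to it. Nfya (ENSMUSG00000023994; 48386885 to 48409906) lies 19.7 kb beyond Treml1 on the minus strand. It had 3.67 FPKM (1.27 to 6.06) in sedentary and 10.9 (5.16 to 16.7) in running mice. The running group was 2.98-fold higher, a log2 fold of 1.55, with slightly overlapping intervals. The authors' deposited table has a q of 0.00718 and a test statistic of 2.60. Its level moved from percentile 27.6 to percentile 51.8 of the tested genes. With 13 annotated transcripts, from 605 to 3706 bases, the estimated fragments range from 59 to 570 in the sedentary and from 187 to 1817 in the running libraries. These ranges overlap. The tables give no value per transcript, and whether the mix of transcripts differed between the groups was not tested.

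**Figure D2:**
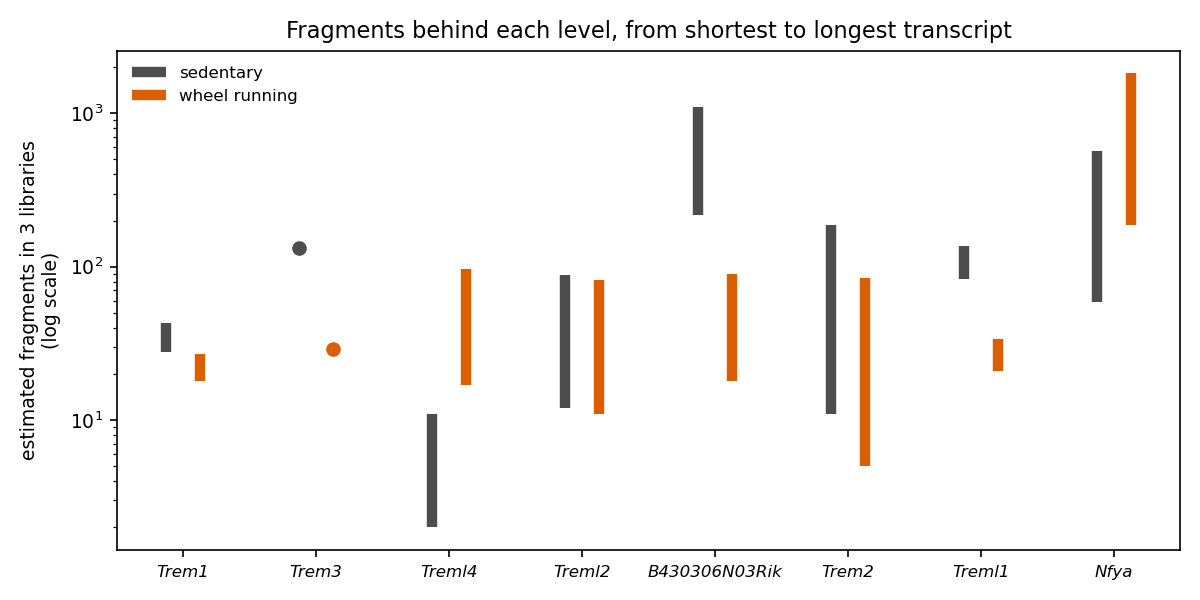
Estimated fragments over the 3 libraries of a group, on a log scale, for each gene; a bar runs from the value if the shortest annotated transcript carried all fragments to the value if the longest did, and the single transcript of Trem3 gives points. Bars of the groups are apart for Trem1, Trem3, Treml4, B430306N03Rik and Treml1, narrowly so for Trem1, and overlap for Treml2, Trem2 and Nfya.

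The genes of the other NF-Y subunits were not called. Nfyb had 25.5 FPKM in sedentary and 26.0 in running mice, and Nfyc had 27.7 and 25.4, so per length Nfya was below both partners in both groups. Of 19 genes with a CCAAT box known from the literature, 0 were called and 0 had a p under 0.05 in the authors' deposited table, with a median log2 fold of -0.07 and a range of -0.25 to 0.13. Those with the highest levels were the invariant chain gene Cd74 (530 and 507 FPKM), the chaperone gene Hspa5 (235 and 214), the class II gene H2-Aa (213 and 189) and the topoisomerase gene Top2a (204 and 194). The NF-Y trimer itself was not measured.

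On its other side Nfya is a close neighbour of Oard1, which encodes an enzyme that removes ADP-ribose from proteins. The first exons of both genes face away from each other across 107 bases, shown here because they are all the annotation leaves between the genes (GRCm38.p6, plus strand, RefSeq).
Nfya to Oard1 (chr17:48409907-48410013): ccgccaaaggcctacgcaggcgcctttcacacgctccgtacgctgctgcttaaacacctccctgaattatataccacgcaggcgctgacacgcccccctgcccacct
None of the 3 motifs occurs in these bases. Oard1 stood at 4.73 FPKM (2.71 to 6.75) in sedentary and 7.41 (4.95 to 9.87) in running mice, so its log2 fold was 0.64. The authors' deposited table lists a p of 0.00415 and a q of 0.240, and it was not called. The next tested gene beyond it, Tspo2, had 3.03 and 3.72 FPKM and was not called either.

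Along the chromosome both directions occurred side by side. From the first tested gene to the last, Trem3 was lower in running mice, Treml4 higher, B430306N03Rik and Treml1 lower and Nfya higher. Of the uncalled genes among them, Trem2 had a log2 fold of -1.07 and Oard1 of 0.64. The 7 genes without Nfya summed to 15.5 FPKM in sedentary and 4.40 in running mice, 3.53-fold lower, and 2.31-fold lower without B430306N03Rik. Treml4 made up 1.07% of that sum in sedentary and 30.6% in running mice, whereas B430306N03Rik went from 41.8% to 11.2%. With Nfya included the sums were 19.2 and 15.3 FPKM.

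**Figure D3:**
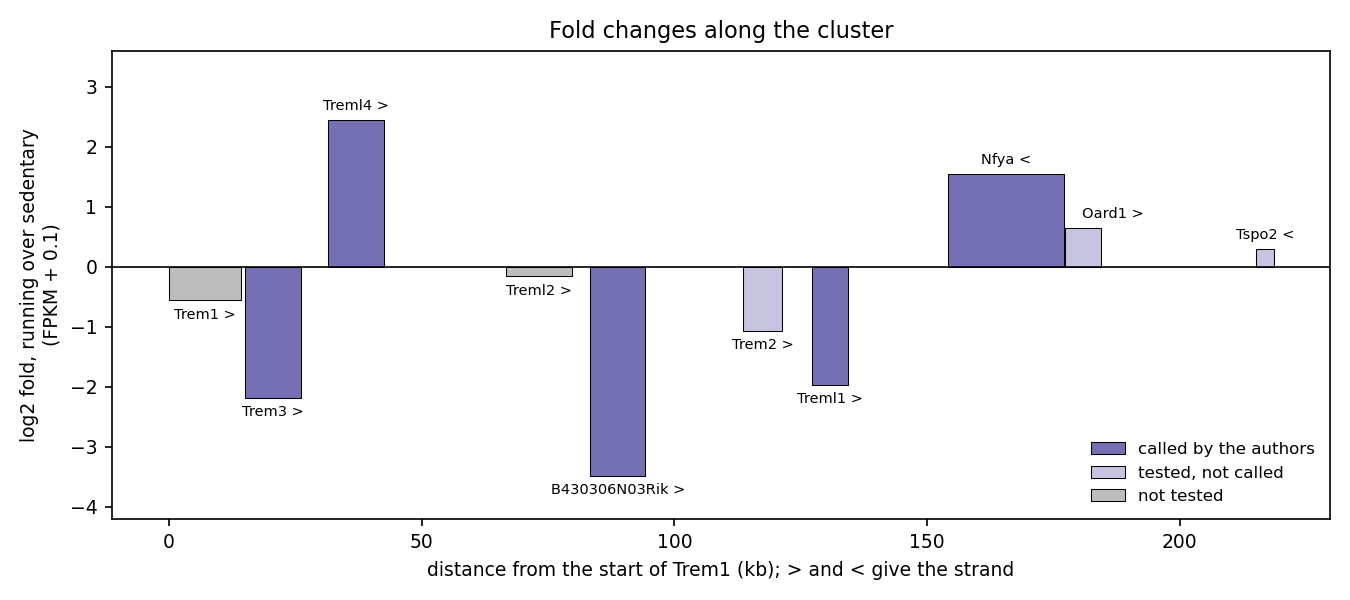
Log2 fold of running over sedentary, from FPKM + 0.1, against the distance from the start of Trem1 in kb; each bar spans a gene, and shading separates genes the authors called, tested without a call, and did not test. Treml4 (2.44) and Nfya (1.55) stand above 0, while Trem3 (-2.18), B430306N03Rik (-3.48) and Treml1 (-1.97) stand below it.

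Within 200000 bases of the cluster lie 15 other genes. Of these, 8 are listed at 0 in both groups, 2 were tested (Oard1 and Tspo2) and 0 were called. Outside immunoglobulin and T cell receptor genes, 103 of 15297 tested genes were called, and the genes were also read in runs of 6 neighbouring tested genes along each chromosome. Of 15182 such runs, 528 held 1 call, 32 held 2, and 6 held 3 or more. The runs moved on by 1 gene at a time and so overlap. All 6 of the latter include genes of this cluster and count the same called genes again. The run from Trem3 to Nfya holds 5 calls. The cluster was chosen for these calls, so the count shows only where calls lie side by side. Called genes within 10000 bases of each other formed 3 pairs: Trem3 with Treml4 and Hspa4l with Plk4 in opposite directions, and the myosin genes Myh2 with Myh1 in the same direction.

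The authors' intervals of Nfya in both groups, and of B430306N03Rik in sedentary mice, were wide for their levels. The half-width above the value was 65.4% of the FPKM for Nfya in sedentary and 52.8% in running mice, and 74.7% for B430306N03Rik in sedentary mice. For tested genes of 3 to 12 FPKM the median half-width was 36.8% in sedentary and 36.1% in running mice, with upper quartiles of 52.8% and 51.8%. In running mice B430306N03Rik had a half-width of 115%, near the median of 107% for genes of 0.1 to 1 FPKM. Trem3 and Treml1 were nearer to genes of their level in sedentary mice, at 46.3% and 45.9%. The sedentary interval of Treml4 had a half-width of 297%.

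Likeness was read from the authors' deposited log2 fold alone, over the 2 group values, among called genes that changed in the same direction. Immunoglobulin and T cell receptor genes and predicted genes with a Gm number were left out. The genes closest to Trem3 were the class I gene H2-Q5 and Treml1. Closest to Treml4 were D7Ertd443e and Hspa4l, to B430306N03Rik Fgf23 and Adam3, to Treml1 Cish and Plk4, and to Nfya 9030025P20Rik and Mrps23. With 2 groups, any genes of like fold are alike by this measure.

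None of the genes that signal for the TREM receptors was called. Of 29 adaptor and signalling genes, 0 were called, 2 (both lower) had a p under 0.05 in the authors' deposited table (all tested genes: 5.65%), 6 had a positive log2 fold, and the median was -0.09 with a range of -0.37 to 0.09. Tyrobp itself had 518 FPKM in sedentary and 452 in running mice, per length far above every gene of the cluster. The adaptor gene Fcer1g (271 and 246 FPKM), the phosphatase gene Ptpn6 (104 and 87.3) and Syk (85.8 and 82.3) followed. Of 11 genes for ligands and for the proteases that shed the receptors, 0 were called and 0 had a p under 0.05 in the authors' deposited table (median -0.00). Among them the TREM1 ligand gene Pglyrp1 had 438 and 393 FPKM and Apoe, a ligand of TREM2, 792 and 819.

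Other activating and paired receptors of myeloid cells were mostly lower in running mice without a call. None of 21 was called, 8 (all lower) had a p under 0.05 in the authors' deposited table (2.22% of all tested genes were lower at that p), 2 had a positive log2 fold, and the median was -0.27 with a range of -0.89 to 0.19. Lilrb4a had 113 and 88.8 FPKM, Sirpa 80.8 and 85.1, Pirb 43.2 and 38.1, and Clec5a, another partner of the Tyrobp adaptor, 42.7 and 33.7. Of 10 tested cytokine genes that respond to TREM1, Il1b fell from 15.8 to 9.48 FPKM (q 0.00718 in the authors' deposited table) and 0 were called higher. Over all tested genes 0.497% were called lower and 0.445% higher. Of the 10, 2 were lower and 0 higher at a p under 0.05 in the authors' deposited table. The log2 fold was positive for 3 of the 10, and the median was -0.19 with a range of -1.44 to 1.18. The uncalled Il1rn had 20.3 and 16.2 FPKM. Of 15 genes of the lipid and lysosome programme that depends on TREM2 in microglia, 0 were called (median 0.05) and 4 had a p under 0.05 in the authors' deposited table, 3 higher and 1 lower, with Spp1 at 1416 and 1578 FPKM. For this list and the cytokines, the shares over all tested genes at that p were 3.42% higher and 2.22% lower.

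Log2 folds of markers of the cells that carry these receptors lay between -0.44 and 0.32. Of 15 neutrophil genes 0 were called, 3 (all lower) had a p under 0.05 in the authors' deposited table, and 0 had a positive log2 fold (median -0.18, summed level 53853 and 45882 FPKM). Of 14 monocyte and macrophage genes Ccr2 was called lower (57.3 and 42.2 FPKM; 0.497% of all tested genes were called lower), 8 had a positive log2 fold, the median was 0.07, and the sums were 1353 and 1352 FPKM. At a p under 0.05 in the authors' deposited table, 2 of the 14 were higher and 1 lower. Beside the rise of Treml4, 7 non-classical monocyte genes were mixed, with a median of 0.20 (sums 242 and 264 FPKM), 4 positive log2 folds and 0 called. At a p under 0.05 in the authors' deposited table, 3 of them were higher, Ace (0.30), Cd36 (0.29) and Eno3 (0.28). Itgal (-0.22) was lower at that p, and Cx3cr1 had a log2 fold of -0.37. The 10 tested dendritic cell genes had a median of -0.16 (sums 342 and 311 FPKM), with 0 called and 2 lower at that p. Over all tested genes 3.42% were higher and 2.22% lower at that p. The dendritic cell marker Xcr1 was near 0, at 0.0325 and 0.0575 FPKM. Beside Trem2, 11 osteoclast genes had a median of 0.09 (sums 1923 and 2034 FPKM), with 0 called and 0 at a p under 0.05 in the authors' deposited table.

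Apart from Ccr2, the called markers were those of bone, muscle and fat. Calls were higher for 2 of 10 osteocyte and osteoblast genes, Sost (47.4 and 66.2 FPKM) and Mepe (98.4 and 137), with a list median of 0.24. They were also higher for 3 of 9 skeletal muscle genes (median 0.28) and 3 of 6 tested adipocyte genes (median 0.56). Over all tested genes 0.445% were called higher. At a p under 0.05 in the authors' deposited table, 6 bone, 4 muscle and 3 adipocyte genes were higher and 0 lower. Over all tested genes 3.42% were higher at that p. Of 8 erythroid genes, 0 were called or had a p under 0.05 in the authors' deposited table (median 0.04). The part of any change in cell makeup in the values of the cluster was not tested.

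**Figure D4:**
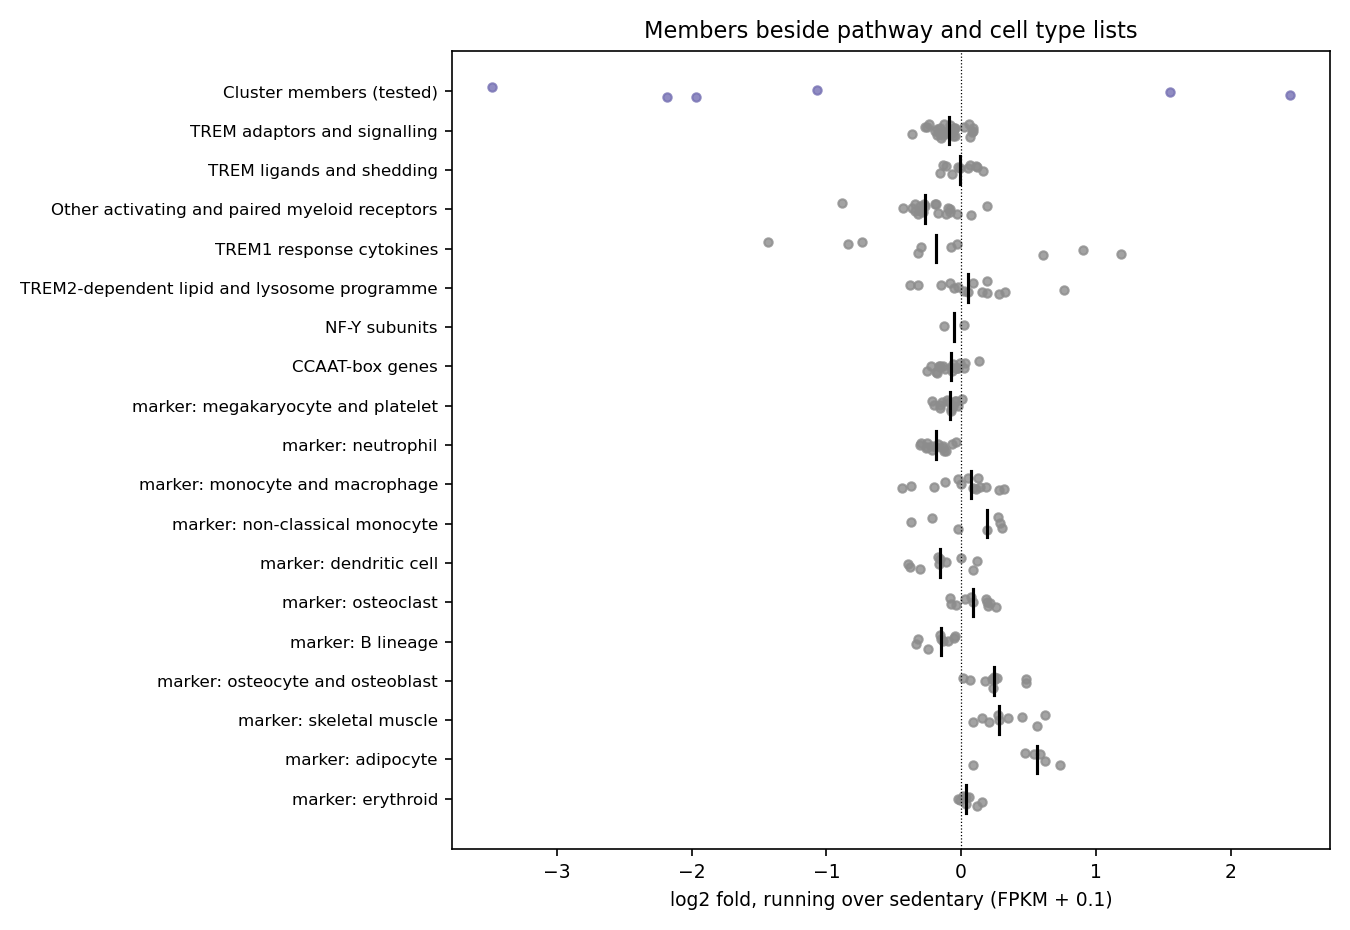
Log2 fold of running over sedentary, from FPKM + 0.1, for each tested gene (points) of the cluster and of 18 pathway and marker lists, with the list median as a vertical bar. The 6 tested genes of the cluster, chosen for their calls, range from -3.48 to 2.44; of the lists, the TREM1 response cytokines spread the widest, from -1.44 to 1.18.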

How the data were processed

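The 6 libraries were made with a kit that keeps strand, per the labels' protocols. Tools named in the submitters' processing notes are Cufflinks 2.2.1, SAMtools 1.10, HISAT2 2.2.1 and Trimmomatic 0.39, with the build GRCm38. Their roles and settings, library totals and whether counting used strand are not stated there. The authors deposited 1 FPKM per group with an interval of unstated level, a log2 fold, a test statistic (a score), a p-value and a q-value; the columns are those of Cuffdiff, per the file headers. No column holds a single library, so the call is the authors' q under 0.05, and p-values cannot be checked against the spread between mice.

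The members and all gene lists were chosen with earlier results of these data known. Log2 folds were computed with a pseudocount of 0.1 (Python 3.11.15, pandas 2.3.3). Named genes were the 8 members, genes within their interval or next to it, and, for each called member, the 2 called genes of nearest deposited log2 fold. Of each list, called members and up to 4 uncalled ones of the highest FPKM were named. Added after their values were seen were 9830107B12Rik, A530064D06Rik, Tspo2, Xcr1, Ace and Cx3cr1, as were the 3 motifs. Cog7, Gabpb2 and Gfra2 are named for shared runs only. The TREM, marker and CCAAT lists number 18. One fragment was sized on single-exon genes over 1500 bases (lengths shortened by 250 bases, less sure for transcripts near that size), taking each group value as the mean over its 3 libraries. Annotation is GENCODE vM21 on GRCm38. Functions were tested on simulated data.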

Additional observations from a re-analysis of the deposited data

How the results depend on the processing

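Other pseudocounts and the tracking table cannot turn the sign of a fold, and rescaling the groups to the same total, median or upper quartile moved log2 folds by at most 0.04, so these alternatives bear on the size of the 8 folds and not on their direction. At a q under 0.01 the 5 called members became 4, without Treml4; at a q under 0.1, or with q recomputed over genes with FPKM of at least 1, there were 5. Requiring as well a test statistic past the normal value for a p of 0.05 left 4, again without Treml4, and 136 genes over all. Requiring intervals apart left 3 members (Trem3, B430306N03Rik and Treml1) and 69 of the 146 calls over all genes, 19 higher and 50 lower against 69 and 77, so the share of higher calls went from 47.3% to 27.5%; the cause of that shift was not tested. The 3.53-fold lower sum of the 7 genes was 4.05-fold when weighted by transcript length, and 2.31-fold with B430306N03Rik left out, an alternative chosen after seeing the data. A minimum of 1 FPKM removed tested genes from the TREM1 cytokine list alone (10 to 8), so it says little about the lists. No paired analysis was possible because only group values, without replicates, stand in the tables used. Leaving out a library was therefore not run either, and whether 1 mouse lies behind a value cannot be seen. The FPKM of genes with several transcripts depend on the authors' assignment of fragments, and Treml4 in sedentary mice rests on few fragments.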
